A study of Rattus norvegicus with 30 samples.

Results

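Adrenal RNA of orchiectomized male rats given testosterone (ORX + T, 5 rats) was compared with that of control males (5 rats), to see which genes stood above or below the level of the intact animal after the hormone had been replaced. These 10 arrays were taken by their labels out of the 30 arrays of the series, which cover 5 rats in each of 6 groups. All rats were Wistar rats of 12 weeks. Control males were sham operated and kept their testes. ORX + T males had lost both testes and received a single subcutaneous depot injection of testosterone, 5 mg per 100 g of body weight, 14 days after surgery. Adrenals of all groups were taken 4 weeks after surgery, thus 2 weeks after the injection, between 10 and 11 am. The 5 ORX males, operated alike but given no hormone, are quoted beside both groups as the level without testes. The model has limits: ORX + T and control rats differed in surgery as well as in hormone, no rat with intact testes received the injection, and each array carried RNA of the entire gland, cortex and medulla together. In such bulk RNA, fewer cells of a type and less RNA per cell cannot be told apart.

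The adrenal cortex makes corticosteroids from cholesterol under the drive of corticotropin, which acts through the receptor encoded by Mc2r, and it stores cholesterol and fatty acids as esters in lipid droplets. Testosterone acts through the androgen receptor, a transcription factor, and through steroids made from it. Most cells also run a circadian clock, in which Bmal1 with Clock or Npas2 switches on the Per genes and Dbp, and the products of these and related genes feed back, so that Dbp and the Per genes peak when Bmal1 and Npas2 are low.

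The deposited values are log2 signals of Affymetrix Rat Gene 2.1 ST arrays. Of 36685 probe sets, 14824 carried exactly 1 gene symbol, and with the brightest probe set for each symbol they stood for 14557 genes. Over all 36685 probe sets the 10 arrays had medians of 4.39 to 4.56. Signals spread less widely on 3 of them, called narrow arrays here: their SD over all probe sets on the log2 scale was 1.54 (control replicate 3), 1.55 and 1.60 (ORX + T replicates 2 and 5), against 1.67 to 1.74 on the other 7. The narrow control array gave the lowest control value for 32 of the 43 risen and 11 of the 14 fallen genes described below, and a narrow ORX + T array the lowest treated value for 33 and 12 of them. Adrenal genes were bright in all 10 arrays: the cortical enzymes Cyp11a1 and Cyp21a1 read 11.66 to 11.71 as group means, and the medullary enzyme Th read 10.20 ± 0.19 in controls and 9.94 ± 0.17 in ORX + T (SD, n = 5 each). Cyp17a1, which the rat adrenal barely uses, read 3.90 and 3.87, below the median of the arrays. Markers of lymphocytes (4 measured), adipocytes (6), liver (3) and skeletal muscle (4) had mean levels of 3.84 to 4.60 on every array, and none of them changed.

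Most genes differed little between ORX + T and intact males, and a small set of genes stood clearly apart. With limma on the 10 arrays, 57 genes differed by more than 2-fold at an adjusted p under 0.05 (Benjamini-Hochberg adjustment, all genes). Of these, 43 genes (0.295% of 14557) were higher and 14 genes (0.0962%) lower in ORX + T. The higher genes stood 2.02-fold to 15.8-fold above the intact level, and the lower genes 2.01-fold to 5.53-fold below it. Without a fold limit, 72 genes (0.495%) were higher and 34 (0.234%) lower. Over all genes the median log2 difference was -0.00463, and 48.5% of genes lay above 0. The 95% interval of the difference lay within 2-fold in either direction for 14029 genes (96.4%). Normalization tends to hold the median near 0, and dim genes differ little in any case. These values therefore do not show how far replacement restored the intact level. In a fit to the 15 male arrays 47 genes were called higher and 13 lower in ORX + T than in controls. In that fit 5 genes were called between ORX and control males. The 5 values of each group did not overlap for any of the 57 genes, nor for 340 genes (2.34%) in all. For each such gene the exact two-sided permutation test gave p = 0.00794, the smallest possible with 5 against 5 values. Without the 3 narrow arrays 55 of the 57 genes were called and all 57 kept their direction, while 68 genes were then called higher and 15 lower. Without control replicate 3 alone, 38 genes were called higher and 35 lower. When each array was left out in turn, 33 of the 57 genes, 26 risen and 7 fallen, were called in all 10 fits.

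**Figure D1:**
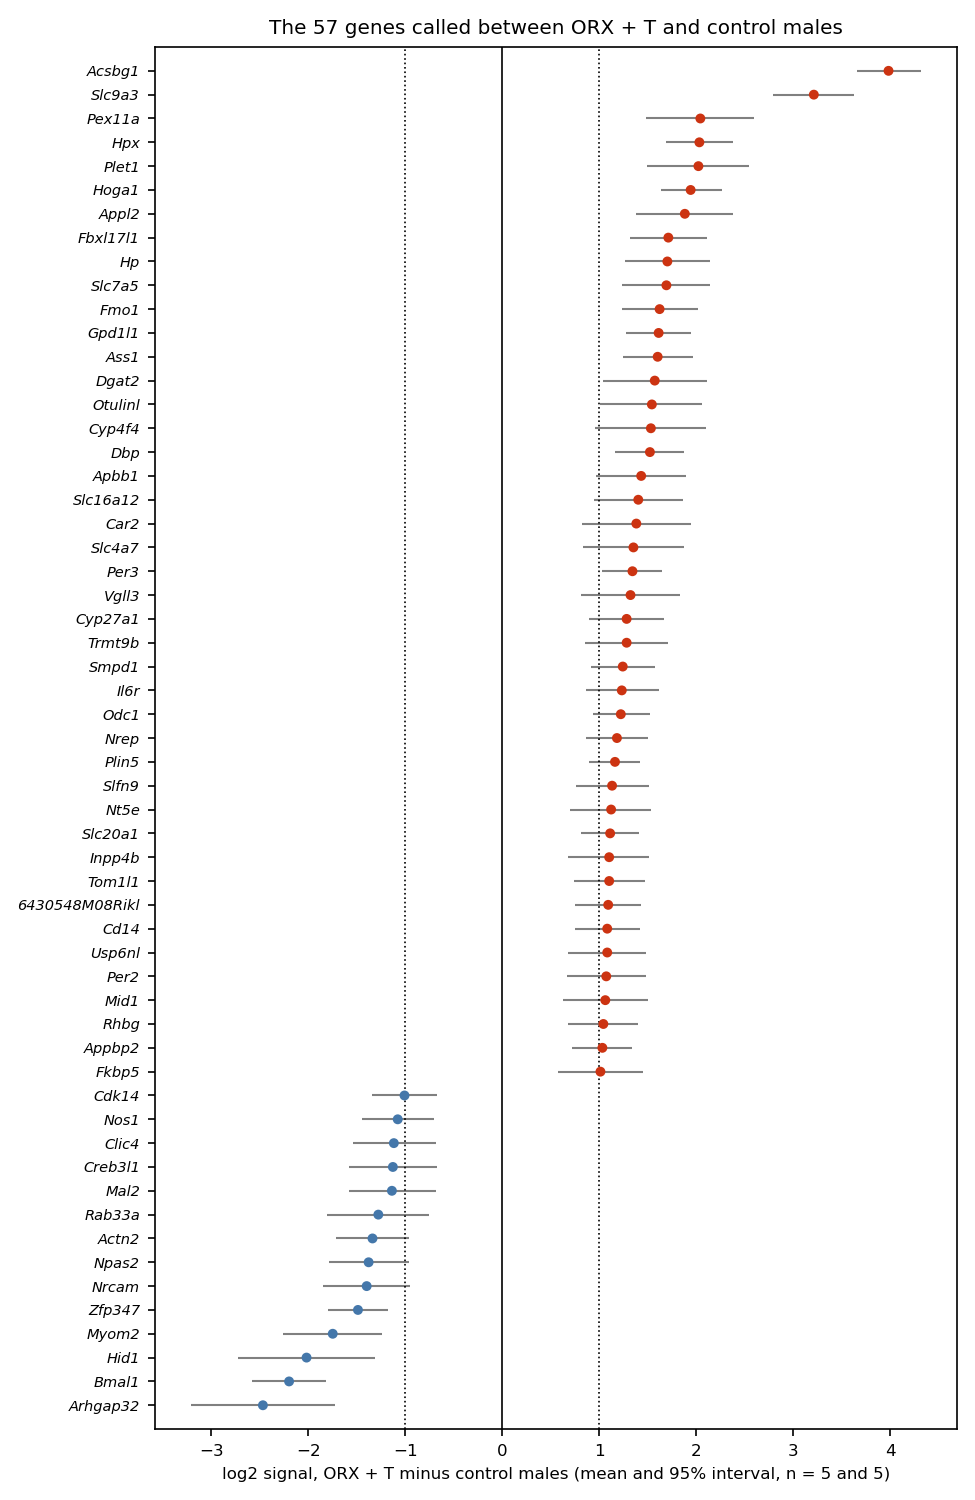
Log2 difference between ORX + T and control males (x axis, mean with 95% interval, n = 5 and 5) for each of the 57 called genes (y axis), with dotted lines at a 2-fold difference. 43 genes lie to the right of 0 (red) and 14 to the left (blue), and Acsbg1 at 3.98 and Slc9a3 at 3.21 stand apart from the other risen genes, which end at 2.04.

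The gene farthest above the intact level was Acsbg1, an acyl-CoA synthetase that activates long and very long chain fatty acids. Its log2 signal was 6.61, 6.09, 5.76, 6.31 and 6.33 in the 5 control males and 10.37, 10.07, 9.97, 10.28 and 10.33 in the 5 ORX + T males. Every treated rat lay more than 3 log2 units above every control rat, and the spread within each group was small against that gap. The log2 difference was 3.98 (SE 0.15, 95% interval 3.65 to 4.31, adjusted p = 4.34e-07), a 15.8-fold higher signal. ORX males without hormone read 5.28 to 5.84, with a mean of 5.57. The group means were 6.22 ± 0.32 in controls and 10.20 ± 0.17 in ORX + T (SD, n = 5 each).

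The next gene was Slc9a3, the sodium/proton exchanger NHE3 known from the kidney tubule and gut. Control males read 5.06, 5.22, 4.97, 5.35 and 5.60, and ORX + T males 8.60, 8.0, 8.06, 8.88 and 8.68. The 2 narrow arrays of ORX + T read 8.0 and 8.68, and no treated value came near the controls. The log2 difference was 3.21 (SE 0.19, adjusted p = 2.23e-05), or 9.24-fold, and ORX males read 4.67 ± 0.21 (SD, n = 5).

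Promoters of these leading genes are shown because both moved farther than any other gene tested, so that their sequence is the first a reader would want to inspect. The windows of 300 bases, from 250 before to 50 after the annotated start, are those of RefSeq on assembly GRCr8. Searched on both strands were the E-box CACGTG bound by clock activators, the ROR half-site TAGGTCA, the D-box TTATGTAA bound by Dbp and Nfil3, the element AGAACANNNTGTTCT of androgen and glucocorticoid receptors, and the nuclear receptor repeat AGGTCANAGGTCA. Capitals mark the E-box of Slc9a3, which starts at position -85 from the gene start, while none of these letters were found in the Acsbg1 window (chr8:63943229-63943528, minus strand; Slc9a3 chr1:30995953-30996252, minus strand).
Acsbg1: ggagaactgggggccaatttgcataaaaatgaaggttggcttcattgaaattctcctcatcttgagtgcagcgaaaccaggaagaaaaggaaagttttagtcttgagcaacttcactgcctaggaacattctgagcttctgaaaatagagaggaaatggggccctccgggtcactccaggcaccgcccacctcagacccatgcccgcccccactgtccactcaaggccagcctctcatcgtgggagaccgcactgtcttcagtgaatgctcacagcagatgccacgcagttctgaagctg
Slc9a3: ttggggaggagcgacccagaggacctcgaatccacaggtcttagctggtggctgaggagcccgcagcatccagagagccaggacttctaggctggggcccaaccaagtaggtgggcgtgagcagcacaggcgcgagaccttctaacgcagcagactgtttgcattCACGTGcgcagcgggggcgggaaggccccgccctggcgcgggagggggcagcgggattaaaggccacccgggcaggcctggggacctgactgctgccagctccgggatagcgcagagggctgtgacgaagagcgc

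Of the 57 called genes, 45 matched a promoter in the reference, 36 risen and 9 fallen. The E-box occurred in 5 of 36 risen promoters (13.9%) and 1 of 9 fallen ones (11.1%), and in 6.42% of all 33469 promoters. Called genes were given 1 promoter each, while the 33469 were all promoters of the reference, not limited to the genes tested. The promoters with it were those of Slc9a3, Slc7a5, Il6r, Usp6nl, 6430548M08Rikl and Actn2. The D-box occurred in 2 risen promoters (5.56%), those of Per2 and Cd14, against 0.893% of all. The receptor element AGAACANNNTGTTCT was found in none of the 45 windows and in 0.0149% of all, and the repeat AGGTCANAGGTCA in none and in 0.0538% of all. Such matches describe letters in a short window only.

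**Figure D2:**
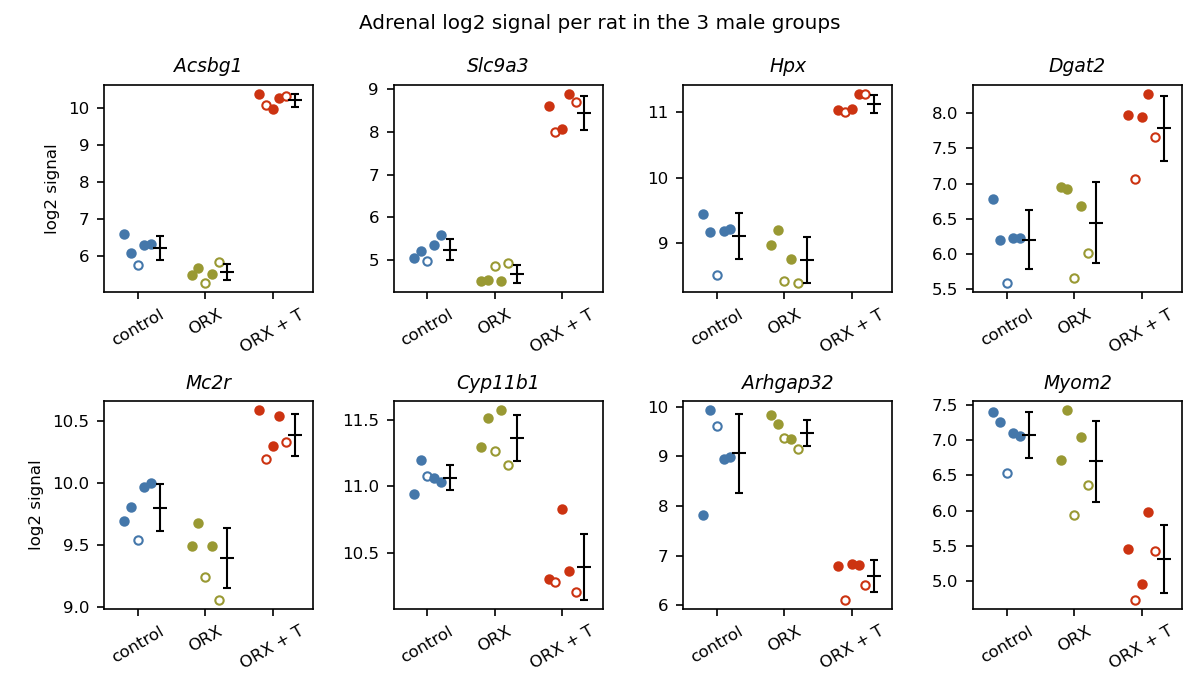
Log2 signal (y axis) of 8 genes in each of the 5 rats of the control, ORX and ORX + T males (x axis), with open circles for narrow arrays and black marks for the mean ± SD. Acsbg1, Slc9a3, Hpx, Dgat2 and Mc2r lie higher in every ORX + T rat than in every control rat, and Cyp11b1, Arhgap32 and Myom2 lower.

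Few genes of fatty acid metabolism passed the test, and whether they rose as a whole was not tested. Pex11a, which drives the division of peroxisomes, read 6.00, 6.18, 6.12, 6.82 and 6.91 in controls and 8.06, 7.86, 8.59, 9.05 and 8.65 in ORX + T. The lowest treated value lay almost 1 log2 unit above the highest control value, and the log2 difference was 2.04 (SE 0.25, adjusted p = 0.00418). Phyh, a peroxisomal enzyme that breaks down branched-chain fatty acids, rose by 0.45 (adjusted p = 0.026) from a high level of 10.84. These 2 were the members that rose among 31 measured genes of fatty acid oxidation, against 0.495% of all genes. This list and all those below were written with earlier results of these data known. Counts of their members beside the share of all genes therefore describe the lists and do not test them. None of the 31 fell, 22 lay above 0 and the median difference was 0.15. Hacl1, which acts after Phyh in the same peroxisomal pathway, had a difference of 1.28 (adjusted p = 0.052), and Cpt1a, the gatekeeper of mitochondrial fatty acid import, 1.10 (adjusted p = 0.0679), both with non-overlapping groups but short of the threshold. The mitochondrial enzymes Hadha and Hadhb, by contrast, differed by 0.18 and 0.01. Phyh failed the test in 6 of the 10 fits that left out 1 array, without control replicates 1, 4 or 5 or ORX + T replicates 1, 3 or 4 (adjusted p up to 0.0964). Without the 3 narrow arrays 6 of these 31 genes rose and 1 fell.

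Few triglyceride genes passed the test either. Dgat2, which carries out the last step of triglyceride synthesis, read 6.78, 6.20, 5.59, 6.23 and 6.23 in controls and 7.97, 7.06, 7.94, 8.27 and 7.66 in ORX + T. The groups did not overlap, the lowest value of each lying on a narrow array, and the log2 difference was 1.57 (SE 0.24, adjusted p = 0.0149). Leaving out control replicate 4, control replicate 5 or ORX + T replicate 1 ended this call (adjusted p = 0.0519, 0.0522 and 0.054). Among 19 measured genes that build fatty acids and triglycerides Dgat2 was the 1 that rose, and none fell, against 0.495% and 0.234% of all genes. Elovl6, which elongates palmitate, was 3.01-fold higher without passing the test, from 8.03 ± 0.73 to 9.62 ± 0.35 (SD, n = 5 each), with an adjusted p = 0.0514. Dgat1, the other enzyme of this last step, differed by -0.51 (adjusted p = 0.999). Plin5, a droplet coat protein that ties lipid droplets to mitochondria, read 5.19 to 5.80 in controls and 6.55 to 6.87 in ORX + T. It rose by 1.16 (SE 0.12, adjusted p = 0.00162) and was the 1 of 13 droplet genes that rose, against 0.495% of all genes. Plin2, the main droplet coat protein of steroidogenic cells, differed by -0.05 (adjusted p = 0.999). Of 13 measured genes of fatty acid uptake and activation only Acsbg1 passed the test, against 0.495% of all genes risen. The other synthetases Acsl1, Acsl3 and Acsl4 differed by 0.12, -0.19 and 0.18.

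Genes of cholesterol handling did not change by the test. None of 13 measured genes of cholesterol synthesis passed, although 12 lay above 0, with a median of 0.26 and the largest difference, 0.68 (adjusted p = 0.456), for the sterol methyl oxidase Msmo1. None of 17 genes of cholesterol uptake, transport and sensing passed. Apoe, the apolipoprotein that the adrenal secretes in large amounts, came closest, at 10.41 ± 0.13 in controls and 10.86 ± 0.12 in ORX + T (SD, n = 5 each, adjusted p = 0.0537), and Lipa, the lysosomal esterase, differed by -0.36 (adjusted p = 0.264). Without the 3 narrow arrays 3 of these 17 genes rose. The oxysterol-forming enzyme Cyp27a1, counted among the P450s, rose by 1.28 (adjusted p = 0.00756), from 7.64 ± 0.37 to 8.92 ± 0.23 (SD, n = 5 each), and ORX males read 6.70.

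In the corticosteroid pathway the receptor and the last enzyme moved in opposite directions while the central enzymes stayed near the intact level. Mc2r, the corticotropin receptor, read 9.70, 9.81, 9.54, 9.97 and 10.00 in controls and 10.59, 10.19, 10.30, 10.54 and 10.33 in ORX + T. All treated rats lay above all controls, and the log2 difference was 0.59 (SE 0.11, adjusted p = 0.046), or 1.5-fold. Cyp11b1, the 11β-hydroxylase that makes corticosterone, read 10.94, 11.20, 11.08, 11.06 and 11.03 in controls and 10.30, 10.28, 10.83, 10.36 and 10.21 in ORX + T. All treated rats lay below all controls, replicate 3 standing above the other 4, and the difference was -0.67 (SE 0.12, adjusted p = 0.0278). ORX males read 9.39 ± 0.24 for Mc2r and 11.36 ± 0.17 for Cyp11b1 (SD, n = 5 each), on the other side of the controls from ORX + T in both cases. The aldosterone synthase Cyp11b2, whose sequence is so like that of Cyp11b1 that probes may read both, differed by -0.41 (95% interval -0.71 to -0.11, adjusted p = 0.344) with overlapping groups, and both values are therefore uncertain.

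Both calls were fragile. Mc2r failed in 8 of 10 fits without 1 array (all but those without control replicate 3 or ORX + T replicate 2, adjusted p 0.0373 to 0.136) and in the fit to all 30 arrays (adjusted p = 0.134). Cyp11b1 failed in 7 of 10 (all but those without control replicates 1 or 3 or ORX + T replicate 3, adjusted p 0.00322 to 0.096) and, narrowly, without the 3 narrow arrays (adjusted p = 0.051), but had adjusted p = 0.000549 with all 30 arrays. The side-chain cleavage enzyme Cyp11a1 differed by -0.05 (95% interval -0.21 to 0.12) and the 21-hydroxylase Cyp21a1 by -0.03 (-0.21 to 0.15), so that both intervals stayed within 1.2-fold. Fdx1, which carries electrons to both mitochondrial steps, differed by -0.43 (adjusted p = 0.113). Of 17 measured genes of the pathway and its regulators 1 rose and 1 fell, against 0.495% and 0.234% of all genes. Their median was -0.05, and for 15 the 95% interval lay within 2-fold. The kinase gene Sik1, which corticotropin induces, showed the largest difference of the list, 1.45, but control replicate 1 read 8.14 against 5.58 to 6.19 in the other controls, and it did not pass (adjusted p = 0.236).

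Clock genes stood far from the intact level, and in opposite directions according to their phase. Dbp, a clock output factor, read 8.84, 8.57, 8.0, 8.82 and 8.93 in controls and 10.05, 10.02, 10.16, 10.29 and 10.22 in ORX + T. The treated rats were tightly grouped (SD 0.11) above every control, and the log2 difference was 1.52 (SE 0.16, adjusted p = 0.00162). Per3 rose by 1.34 (SE 0.14, adjusted p = 0.00162), from 5.61 to 5.95 in controls to 6.72 to 7.44 in ORX + T, and Per2 by 1.07 (adjusted p = 0.0248). ORX males had means of 6.57 for Per3 and 6.06 for Per2, between those of the other 2 groups. Per1 differed by 1.0 (adjusted p = 0.0808), with control replicate 1 at 8.08 overlapping the treated range of 7.99 to 8.63. Thus 3 of 4 measured genes in phase with Dbp rose, against 0.495% of all genes.

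Bmal1, the activator of the opposite phase, read 7.84, 8.01, 7.24, 7.88 and 7.80 in controls and 5.60, 5.68, 5.95, 5.38 and 5.17 in ORX + T. The lowest control value was that of the narrow array, and it still lay above all treated rats by more than 1 log2 unit. The difference was -2.20 (SE 0.17, 95% interval -2.58 to -1.82, adjusted p = 0.000181), a 4.59-fold lower signal. Npas2, which pairs with Bmal1, read 8.98, 8.75, 8.41, 8.90 and 8.84 in controls and 7.35, 6.86, 7.93, 7.68 and 7.18 in ORX + T, a difference of -1.38 (SE 0.19, adjusted p = 0.00756). ORX males already read 7.49 ± 0.54 for Npas2 (SD, n = 5). ORX + T differed from ORX by -0.09 (adjusted p = 0.986, limma on the 15 male arrays). Nfil3, a repressor at D-boxes, fell by 0.91 on the log2 scale (adjusted p = 0.0451), while Clock differed by -0.51 (adjusted p = 0.17) and Cry1 by -0.32 (adjusted p = 0.999). Of 5 measured genes of this phase 3 fell, against 0.234% of all genes, and all 5 lay below 0.

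Calls at the edge were Per2, lost without control replicates 1, 2 or 5 or ORX + T replicates 1 or 4 (adjusted p up to 0.085), and Nfil3, which held only without control replicate 4 (adjusted p = 0.0295 there, up to 0.132 without another array) and was lost without the 3 narrow arrays (adjusted p = 0.0876). Dbp, Per3, Bmal1 and Npas2 were called in all 10 fits without 1 array. Glands of all groups were taken within the same hour of the day, and the order of the groups within that hour is not given, so an effect of the order and of the treatment on clock genes cannot be told apart.

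Promoters of a clock gene from each phase are shown, those of the called clock genes whose windows held a motif (RefSeq, GRCr8, windows as above). Capitals mark the D-box of Per2 (chr9:99496944-99497243, minus strand), which starts at position -192 from the gene start, and the ROR half-site of Bmal1 (chr1:176766078-176766377, plus strand), at position -16. TAGGTCA occurred in 2.63% of all promoters, in no other matched promoter of a called gene, and none of the 5 motifs occurred in the windows of Dbp, Per3 and Npas2.
Per2: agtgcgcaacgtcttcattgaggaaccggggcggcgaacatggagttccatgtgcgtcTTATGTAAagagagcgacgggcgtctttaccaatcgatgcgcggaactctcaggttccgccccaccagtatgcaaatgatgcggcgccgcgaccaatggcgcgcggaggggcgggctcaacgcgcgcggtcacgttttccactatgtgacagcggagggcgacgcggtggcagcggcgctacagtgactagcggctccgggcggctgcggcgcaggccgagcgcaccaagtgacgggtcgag
Bmal1: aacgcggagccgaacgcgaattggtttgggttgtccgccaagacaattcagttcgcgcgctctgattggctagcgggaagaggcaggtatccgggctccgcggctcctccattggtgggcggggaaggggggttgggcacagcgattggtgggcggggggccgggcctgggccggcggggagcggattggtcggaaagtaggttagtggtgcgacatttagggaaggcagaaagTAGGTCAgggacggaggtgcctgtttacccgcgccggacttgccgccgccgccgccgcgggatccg

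Some textbook androgen targets were among the risen genes. Of 19 measured genes of the androgen response list 4 rose, against 0.495% of all genes, and none fell, and the median difference was 0.09. Of the 19, 10 lay above 0 and 9 below, and the lowest, Abcc4 at -0.87, did not pass. Without the 3 narrow arrays 5 rose and 1 fell. The androgen receptor gene itself has no named probe set here and was not analysed. Odc1, which opens polyamine synthesis, read 7.59 to 8.22 in controls and 8.86 to 9.41 in ORX + T, a rise of 1.22 (SE 0.14, adjusted p = 0.00207). Inpp4b, a phosphoinositide phosphatase, rose by 1.10 (adjusted p = 0.0258) and Appbp2 by 1.03 (adjusted p = 0.00746). Fkbp5, a chaperone of steroid receptors that both androgens and glucocorticoids induce, read 7.20 to 7.88 in controls and 7.97 to 9.09 in ORX + T, a rise of 1.01 that just passed (adjusted p = 0.0499). ORX males read 7.68 for Fkbp5 and 7.93 for Odc1, close to the control means of 7.63 and 7.97. The Fkbp5 call was lost in 9 of 10 fits without 1 array, all but that without ORX + T replicate 2 (adjusted p up to 0.14). Inpp4b was lost without control replicates 1 to 5 or ORX + T replicates 1 or 4 (adjusted p up to 0.0778, log2 difference down to 0.99), and Appbp2 without control replicate 3 or ORX + T replicate 1, where its difference was 0.89 and 0.99.

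A few genes of plasma and acute phase proteins were higher, led by the scavengers of free heme and haemoglobin. Hpx, hemopexin, read 9.44, 9.16, 8.51, 9.18 and 9.21 in controls and 11.04, 11.00, 11.05, 11.28 and 11.28 in ORX + T. The treated values spanned under 0.3 log2 units, all more than 1.5 units above the highest control, and the difference was 2.03 (SE 0.16, adjusted p = 0.000181), or 4.09-fold. Hp, haptoglobin, read 5.47, 5.01, 4.84, 4.88 and 4.96 in controls and 7.01, 6.46, 6.27, 7.33 and 6.60 in ORX + T, a difference of 1.70 (SE 0.20, adjusted p = 0.0035). Il6r, a chain of the interleukin-6 receptor, rose by 1.23 (adjusted p = 0.00756), and Cd14, the lipopolysaccharide co-receptor of macrophages, by 1.08 (adjusted p = 0.00877). Of 20 measured members of the list these 4 rose, against 0.495% of all genes, and none fell. The mean level of all 20 per array was 5.24 to 5.47 in controls and 5.70 to 5.86 in ORX + T. Their median difference was 0.15, with 14 above 0 and 6 below. Serpina3n was 2.92-fold higher but did not pass (adjusted p = 0.0733, or 0.0438 without control replicate 3), with ORX + T replicate 3 at 5.36 inside the control range of 4.65 to 5.66 and the other 4 treated rats at 6.71 to 7.28 (adjusted p = 0.00441 without that treated array). The liver markers Alb and Ttr read 4.01 to 4.33 as group means, below the array medians, and differed by 0.09 and 0.08. Serpina1, the other liver marker measured, read 4.81 in controls and 4.76 in ORX + T, a difference of -0.05. The macrophage markers Cd68, Csf1r and Adgre1 differed by -0.05, -0.21 and -0.04 (adjusted p = 0.999 each), against 1.08 for Cd14, whose difference was 0.97, under 2-fold, without control replicate 3.

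Single transporters and enzymes of amino acid and ion handling were higher. Slc7a5, the large neutral amino acid transporter LAT1, read 7.47, 8.53, 7.66, 8.45 and 8.34 in controls and 9.87, 9.57, 9.64, 9.95 and 9.87 in ORX + T. The controls were the more scattered group, yet the highest of them lay a full log2 unit below the lowest treated rat, and the difference was 1.69 (SE 0.21, adjusted p = 0.00377). Hoga1, a mitochondrial aldolase of hydroxyproline breakdown, rose by 1.94 (SE 0.14, adjusted p = 0.000157) and Ass1, the argininosuccinate synthase, by 1.60 (SE 0.16, adjusted p = 0.00156). Together with Odc1 they made 4 risen genes of 24 measured in amino acid transport and metabolism, of which none fell, against 0.495% risen among all genes. ORX males read 6.65 ± 0.91 for Slc7a5 and 7.17 ± 0.71 for Ass1 (SD, n = 5 each), against 8.09 and 8.51 in controls. Slc7a1, a carrier of arginine and lysine, had the lowest difference of the list, -0.86 (adjusted p = 0.212).

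Of 21 measured ion and solute carriers and their partners 6 rose and none fell, against 0.495% and 0.234% of all genes. As members were chosen with earlier results known, the count does not test carriers as a set. Beside Slc9a3 these were Slc16a12, a monocarboxylate family carrier, at 1.40 (adjusted p = 0.0119), Car2, carbonic anhydrase, at 1.38 (adjusted p = 0.0327), the bicarbonate carrier Slc4a7 at 1.35 (adjusted p = 0.0265), the phosphate carrier Slc20a1 at 1.11 (adjusted p = 0.00361) and the ammonia channel Rhbg at 1.04 (adjusted p = 0.0158). Slc9a3, Slc16a12 and Slc20a1 were called in all 10 fits without 1 array. Car2 was not called without control replicates 4 or 5 or ORX + T replicates 1, 3, 4 or 5 (adjusted p up to 0.109), Slc4a7 without control replicates 1, 2 or 5 or ORX + T replicates 1, 4 or 5 (up to 0.0907), and Rhbg without control replicates 3, 4 or 5 or ORX + T replicates 1 or 4 (up to 0.0577). Without the 3 narrow arrays 6 of the 21 rose and 1 fell.

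Of 26 measured monooxygenases, P450s, glutathione enzymes and other genes of xenobiotic handling, 5 were higher and none lower, with a median of 0.06 and 0.495% of all genes risen. Fmo1, a flavin monooxygenase of drug and amine oxidation, read 8.76, 8.67, 8.18, 8.01 and 8.01 in controls and 10.09, 9.92, 9.51, 10.12 and 10.08 in ORX + T, a difference of 1.62 (SE 0.18, adjusted p = 0.00207). Cyp4f4, a fatty acid hydroxylase, rose by 1.53 (adjusted p = 0.0248) from 5.89 ± 0.48 in controls, with ORX males at 4.91 ± 0.17 (SD, n = 5 each). Cyp27a1, Ephx1 (0.98) and Fmo4 (0.87) were the other 3, of which Ephx1, an epoxide hydrolase, and Fmo4 stood less than 2-fold above the intact level. Cyp4f4 lost its call in 7 of 10 fits without 1 array (all but those without control replicates 1 or 3 or ORX + T replicate 2, adjusted p up to 0.0828), Ephx1 in 7 (all but those without control replicates 3 or 5 or ORX + T replicate 2, up to 0.105), and Fmo4 in 6 (without control replicates 1, 2, 4 or 5 or ORX + T replicates 4 or 5, up to 0.0988).

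**Figure D3:**
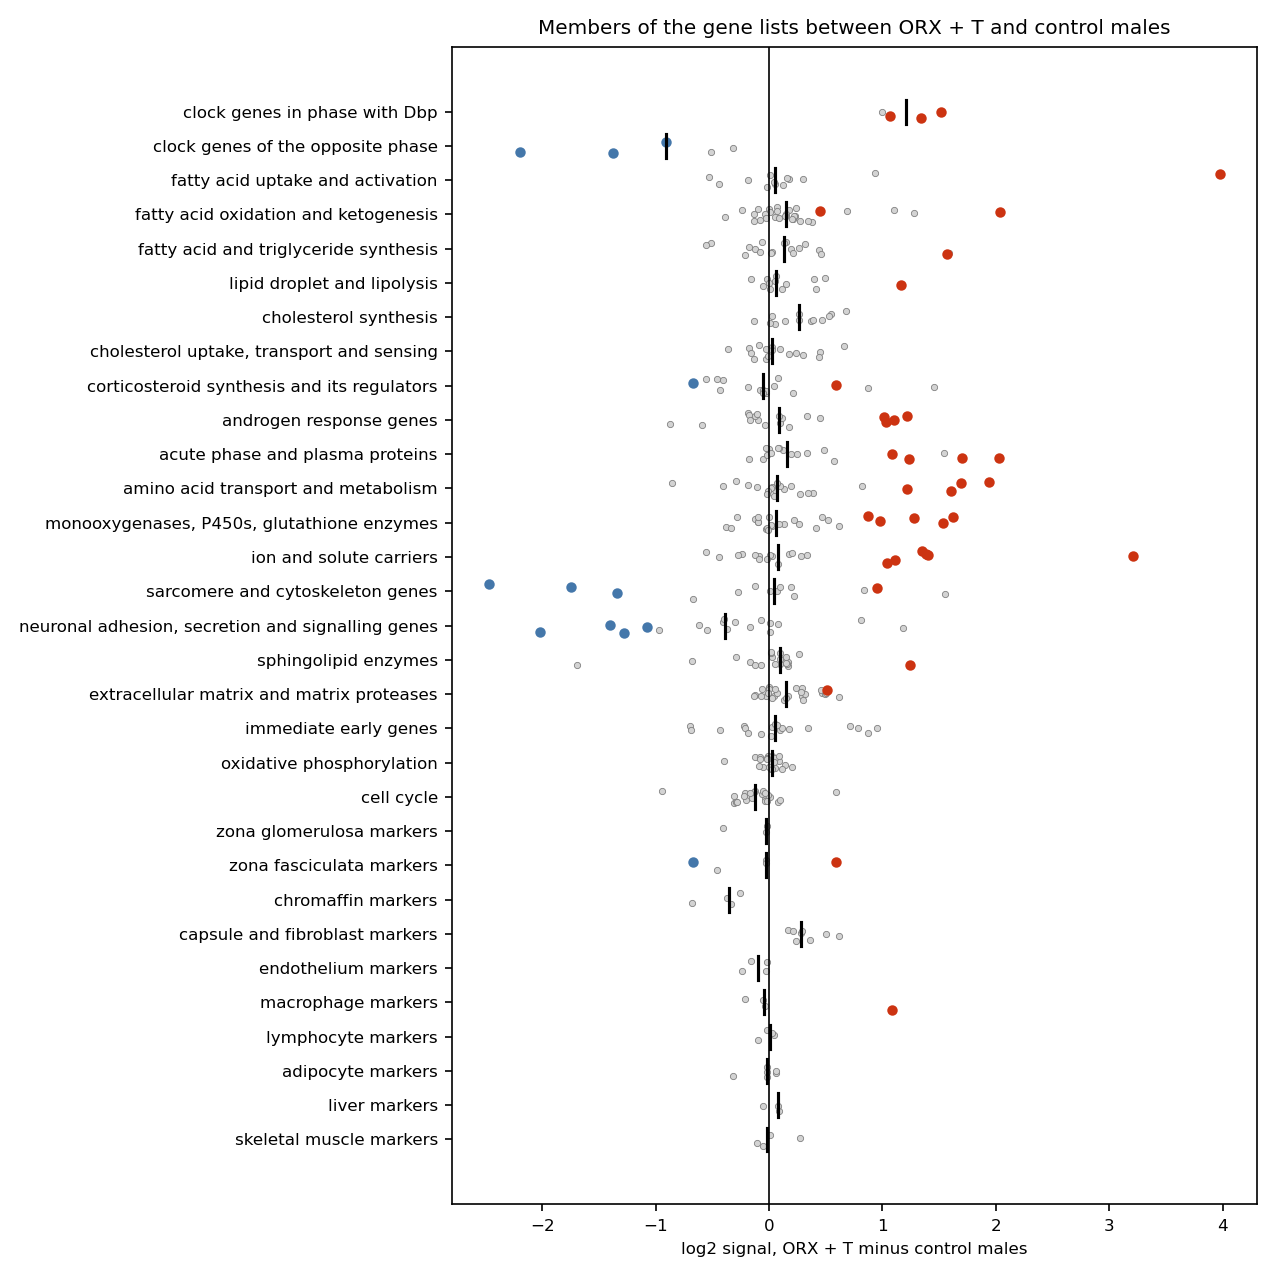
Log2 difference between ORX + T and control males (x axis) for each measured member of 31 gene lists (y axis), with red and blue points for members that rose or fell at an adjusted p under 0.05, grey points for the rest and black bars for list medians. The clock lists have medians of 1.21 and -0.91, while most other medians lie between -0.39 and 0.28 with single genes far out.

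Other genes far above the intact level fell in none of these groups. Plet1, a membrane glycoprotein, read 6.34, 6.26, 5.14, 5.54 and 5.40 in controls and 7.84, 7.32, 7.66, 8.06 and 7.90 in ORX + T, a rise of 2.02 (SE 0.24, adjusted p = 0.0035), and 4.37 ± 0.56 (SD, n = 5) in ORX. Appl2, an endosomal adaptor protein, rose by 1.88 (SE 0.23, adjusted p = 0.00361). Fbxl17l1 stood at 4.76 to 4.95 in controls and 6.01 to 6.97 in ORX + T, a rise of 1.71 (adjusted p = 0.00162) from a very even control level. Gpd1l1 rose by 1.61 (SE 0.15, adjusted p = 0.000993), and Smpd1, the lysosomal sphingomyelinase, by 1.24 (adjusted p = 0.00361). Smpd1 was the 1 of 22 sphingolipid enzymes that passed, against 0.495% of all genes risen. Enc1, an actin-binding protein, was 2.92-fold higher without passing (adjusted p = 0.0514), as control replicate 1 read 7.49 against 5.67 to 6.11 in the other controls and 7.57 to 7.92 in ORX + T. Without that control the difference was 1.88 (adjusted p = 0.000158). The remaining risen genes were Otulinl, Apbb1, Vgll3, Trmt9b, Nrep, Slfn9, Nt5e, Tom1l1, Usp6nl, Mid1 and 6430548M08Rikl, at 1.06 to 1.54. Slfn9 had means of 5.31 in controls, 6.35 in ORX and 6.45 in ORX + T. Of the remaining risen genes, Apbb1, Nrep, Slfn9 and 6430548M08Rikl were called in all 10 fits without 1 array. Otulinl was not called without ORX + T replicates 1 or 5, Trmt9b without control replicate 4, and Tom1l1 without control replicate 3. Nt5e and Vgll3 were called in 5 of these fits, Usp6nl in 3 and Mid1 in 1, where adjusted p rose to 0.0737, 0.0908, 0.0741 and 0.119. Nt5e failed without control replicates 1, 4 or 5 or ORX + T replicates 1 or 4, Vgll3 without control replicates 2 or 5 or ORX + T replicates 1, 4 or 5, Usp6nl in all but those without control replicate 1 or ORX + T replicates 2 or 3, and Mid1 in all but that without ORX + T replicate 2.

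Of the 14 genes below the intact level, 7 belong to the lists of cytoskeletal (14 measured) and neuronal (18 measured) proteins. As members were chosen with earlier results known, this count does not test these lists. The number of fallen genes rested on single arrays more than that of the risen genes. It was 35 without control replicate 3 and 7 without control replicates 2 or 5 or ORX + T replicate 5. Arhgap32, a GTPase-activating protein, read 7.82, 9.93, 9.61, 8.95 and 8.99 in controls and 6.80, 6.11, 6.83, 6.81 and 6.41 in ORX + T. The controls were scattered over 2 log2 units, and the lowest of them, replicate 1, still lay above all treated rats. The difference was -2.47 (SE 0.34, 95% interval -3.21 to -1.73, adjusted p = 0.00753), or 5.53-fold lower, and ORX males read 9.47 ± 0.27 (SD, n = 5). Myom2, a protein of the sarcomeric M-band, read 7.40, 7.25, 6.53, 7.10 and 7.06 in controls and 5.45, 4.74, 4.96, 5.99 and 5.43 in ORX + T, a difference of -1.75 (SE 0.23, adjusted p = 0.00586). Actn2, an actinin best known from muscle, fell by 1.34 on the log2 scale (adjusted p = 0.00519). These were the 3 that fell of 14 measured sarcomere and cytoskeleton genes, against 0.234% of all genes, and of the 14 1, Vim, rose by 0.95 (adjusted p = 0.0297, but 0.286 with all 30 arrays and lost in all fits without 1 array but those without control replicate 3 or ORX + T replicates 2 or 3). Of these 14 sarcomere and cytoskeleton genes 8 lay above 0 and 6 below, with a median of 0.04. The highest, Enc1 at 1.55, did not pass. The skeletal muscle markers Acta1, Myh4, Ckm and Tnnt3 differed by -0.05, -0.11, 0.01 and 0.27, and none passed the test.

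Among genes of neuronal adhesion, secretion and signalling 4 of 18 fell, against 0.234% of all genes, and none rose, with a median of -0.39. Of the 18, 13 lay below 0 and 5 above, and the highest, Unc5d at 1.18, did not pass. Without the 3 narrow arrays, and likewise in the fit to all 30 arrays, 4 fell and 2 rose. Hid1, needed to form secretory granules, read 7.49, 7.50, 6.49, 7.22 and 7.34 in controls and 4.60, 4.61, 6.32, 5.46 and 4.97 in ORX + T. The treated rats spread over 1.7 log2 units and the highest of them came within 0.2 of the lowest control, so that the difference of -2.02 (SE 0.32, adjusted p = 0.0183) was lost without control replicates 2, 4 or 5 or ORX + T replicates 1 or 5 (adjusted p = 0.0557 to 0.0617). ORX males read 5.93 ± 1.01 for Hid1 (SD, n = 5). Nrcam, a neuronal cell adhesion molecule, fell by 1.40 (adjusted p = 0.0109), from 7.27 to 8.22 in controls to 5.99 to 6.90 in ORX + T, and ORX males read 8.55 ± 0.27 (SD, n = 5). Rab33a, a vesicle GTPase, fell by 1.28 (adjusted p = 0.0342) and Nos1, the neuronal nitric oxide synthase, by 1.08 (adjusted p = 0.015) on the log2 scale. The call of Rab33a was lost in 8 of 10 fits without 1 array, all but those without control replicate 3 or ORX + T replicate 3 (adjusted p up to 0.111), and that of Nos1 without control replicates 2, 4 or 5 or ORX + T replicate 5 (up to 0.0549).

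The 4 measured markers of chromaffin cells, the neuron-like cells of the medulla, moved along without passing the test. Th, Dbh, Chgb and Slc18a1 differed by -0.26, -0.34, -0.37 and -0.68 (adjusted p = 0.441 to 0.695), and their mean level per array was 9.17 to 9.92 in controls and 8.84 to 9.44 in ORX + T, ranges that overlap. The share of medulla in the glands and its part in the lower neuronal genes was not tested. All 8 measured capsule and fibroblast markers lay above 0, with a median of 0.28 and mean levels of 5.78 to 6.20 and 6.05 to 6.72, and none passed the test. Sparc, a matrix protein, was the 1 of 27 matrix genes that rose, against 0.495% of all genes. Its rise of 0.51 (SE 0.08, adjusted p = 0.0126) was lost without control replicate 5 or ORX + T replicate 4 (adjusted p = 0.0517 and 0.0513). Of these 27 genes 5 rose without the 3 narrow arrays. The part of capsule cells in the rise of Sparc was not tested. None of the 4 endothelium markers passed, and their mean levels of 7.03 to 7.83 and 7.10 to 7.83 nearly coincided.

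The zinc finger gene Zfp347 was the most even of the fallen genes. It read 9.32, 9.53, 9.16, 9.14 and 8.96 in controls and 8.04, 7.42, 7.89, 7.78 and 7.54 in ORX + T, a difference of -1.49 (SE 0.14, adjusted p = 0.000993), and was called in all 10 fits without 1 array. Mal2, a protein of membrane traffic, Creb3l1, a transcription factor held in the endoplasmic reticulum, Clic4, an intracellular chloride channel protein, and the kinase Cdk14 fell by 1.14, 1.13, 1.12 and 1.01 on the log2 scale (adjusted p = 0.0284, 0.0327, 0.0253 and 0.0148). Each of these 4 calls was lost without control replicates 2, 4 or 5, ORX + T replicate 5, with adjusted p up to 0.096, 0.108, 0.0843 and 0.0538. Leaving out ORX + T replicates 1 or 4 also ended the calls of Mal2, Creb3l1 and Clic4, replicate 2 those of Mal2, Clic4 and Cdk14, replicate 3 those of Mal2 and Creb3l1, and control replicate 1 that of Clic4. Large differences short of the threshold were those of Sptssb, a small subunit of serine palmitoyltransferase, at -1.69 (adjusted p = 0.0586, or 0.0346 without control replicate 3 and 0.0362 without ORX + T replicate 3), the zinc finger gene Giot1 at -1.55 (adjusted p = 0.0714) and the tendon transcription factor Scx at -1.40 (adjusted p = 0.0701). Giot1 read 8.39 to 10.46 in controls and 7.31 to 7.86 in ORX + T, and Scx 6.78 to 8.37 and 5.77 to 6.40, with no overlap in either.

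No gene of the lists of basic cell functions passed the test. None of 22 genes of oxidative phosphorylation passed the test, their median difference was 0.03, and the 95% interval lay within 2-fold for all 22. None of 23 cell cycle genes passed, with 19 below 0, a median of -0.12 and intervals within 2-fold for 21. Tyms, which makes thymidylate, had the lowest difference, -0.94 (adjusted p = 0.0658, and 0.00561 without control replicate 3). Without the 3 narrow arrays Tyms fell (adjusted p = 0.00171) and Rrm2, a ribonucleotide reductase subunit, rose by 0.90 (adjusted p = 0.0246). None of 19 immediate early genes passed either, but only 12 had intervals within 2-fold, and differences ran from -0.70 for Fos to 0.95 for Klf4. Myc differed by -0.69 (adjusted p = 0.0714), and by -0.68 (adjusted p = 0.0404) without the 3 narrow arrays. None of the 3 zona glomerulosa markers passed, with Agtr1b at -0.02 and Vsnl1 at -0.03.

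The genes that orchiectomy had moved ended at different places relative to the intact level. In a fit to the 15 male arrays 5 genes (0.0343%) were called between ORX and control males: Cd36, Gpr55, Spetex2g, Bmal1 and Dbp. As both comparisons share the control rats, the values are set side by side only. Cd36, which takes up fatty acids, read 8.97, 8.88, 8.34, 8.12 and 8.29 in controls, 5.92 to 7.22 in ORX, and 9.60, 9.26, 9.06, 9.85 and 9.47 in ORX + T. All treated rats lay above all controls, by a mean of 0.93 (95% interval 0.50 to 1.36), and the adjusted p was 0.0665, or 0.0496 without control replicate 1. Gpr55, a receptor for lysophospholipids, read 5.54, 6.10, 5.52, 5.86 and 5.95 in controls, 4.28 to 4.63 in ORX, and 6.71, 5.76, 6.78, 7.10 and 6.65 in ORX + T. Replicate 2 of ORX + T, a narrow array, lay inside the control range and the other 4 above it, and the difference was 0.81 (95% interval 0.31 to 1.30, adjusted p = 0.193, or 0.0108 without that array).

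Spetex2g lay between the other 2 groups. It read 5.85, 6.52, 5.77, 6.89 and 6.80 in controls, 4.48 to 4.99 in ORX, and 5.49, 4.97, 5.69, 5.72 and 5.46 in ORX + T. All treated rats lay below all controls, and the difference of -0.90 (95% interval -1.42 to -0.37) did not pass (adjusted p = 0.165, or 0.0487 without control replicate 3). Dbp and Bmal1 did not lie nearer to the intact level in ORX + T than in ORX. Dbp had means of 8.63 in controls, 10.01 in ORX and 10.15 in ORX + T, and the difference between the latter 2 was 0.14 (adjusted p = 0.959). Bmal1 had means of 7.76, 6.26 and 5.56, and that difference was -0.70 (adjusted p = 0.114).

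**Figure D4:**
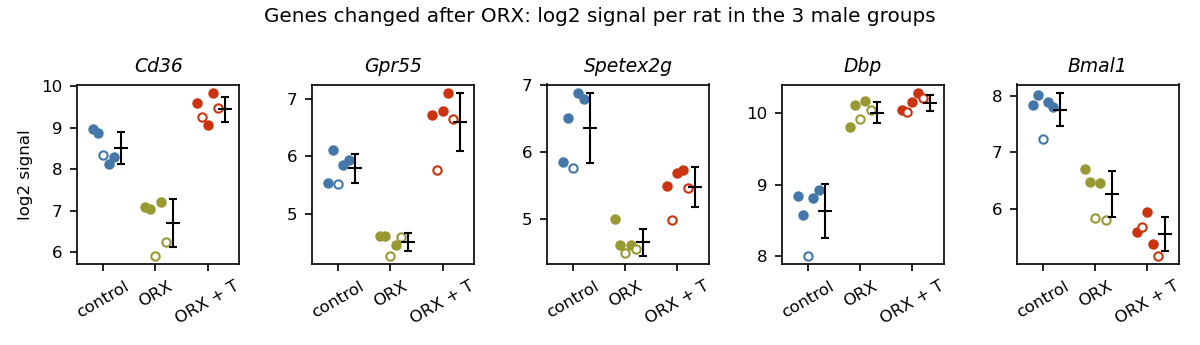
Log2 signal (y axis) per rat in control, ORX and ORX + T males (x axis) for the 5 genes called between ORX and control males, with open circles for narrow arrays and black marks for the mean ± SD. Cd36 and Gpr55 have means of 9.45 and 6.60 in ORX + T, above the control means of 8.52 and 5.79, Spetex2g lies between ORX and control, and Dbp and Bmal1 lie on the ORX side.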

How the data were processed

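Whole adrenal RNA was hybridized to 1 array per rat. The authors ran RMA from the affy package, which corrects background, normalizes and combines probes, and deposited log2 signals. Which arrays were normalized together, and the genome build of the probe annotation, are not given in the sources used here. No further scaling was applied. Entrez numbers of 14670 probe sets were matched to RefSeq, and 0 symbols needed an update. A further 829 probe sets carried several symbols and 21032 carried none; they were left out of the tests of genes. Genes were tested with limma 3.58.1 in R 4.3.3 on the 10 arrays (8 residual and 2.93 prior degrees of freedom), and a call needed more than a 2-fold difference with adjusted p below 0.05. In lists, rises and falls needed only the adjusted p. The number of arrays limits the precision. Labels call the arrays biological replicates. The replicate numbers were not taken to pair rats, since the labels do not say so. Deviations of equal numbers correlated at -0.56 to 0.59. The highest correlation, 0.88, joined control replicate 3 and ORX + T replicate 2, both narrow arrays. These values therefore cannot show whether arrays of equal number were handled together.

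The genes and the 31 lists were chosen with earlier results of these data known. Named were the 14 largest rises and 10 largest falls among called genes, list members past the adjusted p or else up to 2 of lowest p, genes called after ORX, and the 3 largest folds short of the call in each direction. The other genes named, among them the remaining called genes, were picked once their values were known. Other settings tried were fits to 15 or 30 arrays, trended and robust variances, array weights, a replicate block, the 60% brightest genes, all probe sets, their mean per gene, centring on array medians, quantile normalization, calls at any fold, a test of differences above 1.2-fold, leaving out each array or the 3 narrow arrays (SD under 1.65), and the array SD as a covariate. The fit was tested on simulated data.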

Additional observations from a re-analysis of the deposited data

Results flagged for a closer look

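Of 200 groups of 5 values of named genes, 19 held a value whose gap to the nearest of the other 4, as a share of the range of the group, passed Dixon's critical value at the 95% level, which chance alone passes in about 1 in 20 groups. Of these values 13 lay on narrow arrays, and 12 of them on control replicate 3. That array read low for Hoga1 (6.45, others 6.87 to 7.02), Appl2 (6.57, others 7.53 to 7.78), Bmal1 (7.24, others 7.80 to 8.01), Hid1 (6.49, others 7.22 to 7.50), Appbp2 (8.69), Il6r (5.29), Smpd1 (8.14), Otulinl (5.09), Usp6nl (6.65) and the endothelial genes Cdh5 (6.68) and Tek (6.62), and high for the dim gene Cidec (4.29). The other value on a narrow array was that of Gpd1l1 in ORX + T replicate 2 (9.17, others 9.57 to 9.74).

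On arrays of usual spread, Hp was high in control replicate 1 (5.47, others 4.84 to 5.01), and Slc20a1 and Cyp11b2 were high in control replicate 2 (9.25 and 10.10). Cyp11b1 was high in ORX + T replicate 3 (10.83, others 10.21 to 10.36). Enc1 was high in control replicate 1 (7.49, others 5.67 to 6.11) and in ORX + T replicate 3 (7.92, others 7.57 to 7.66).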

How the results depend on the processing

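No called gene changed direction under the alternatives run, and 25 of the 57 kept the call in all 21 settings applied to single genes, Acsbg1, Slc9a3, Hpx, Bmal1 and Dbp among them. Differences near 0 of genes that did not pass could change sign, as that of Agtr1b (-0.09 to 0.03 with 1 array left out). Against 43 risen and 14 fallen genes, weighting the arrays gave 77 and 27, adding each array's SD to the model 72 and 22, and dropping the fold limit 72 and 34. Quantile normalization gave 65 risen genes, and leaving out the 3 narrow arrays gave 68. The fallen count was 22 with every probe set tested, 9 after median centring and 8 in the test against a fold of 1.2. With 1 array left out the risen count was 29 to 57 and the fallen count 7 to 35: it was 35 without control replicate 3, 7 without control replicates 2 or 5 or ORX + T replicate 5, and 8 without control replicate 4. With the replicate block 30 genes rose and 3 fell, and the calls of Arhgap32, Nrcam, Npas2, Actn2, Cyp27a1, Slc20a1 and Apbb1, kept with any array left out, were lost (adjusted p = 0.059 to 0.133). The numbers do not pair the rats by the labels, and no control array correlated best with the ORX + T array of its own number. As the highest correlation joined narrow arrays of both groups, this does not settle whether arrays of equal number were handled together. Slfn9 and Cdk14 were lost in the fits to 15 arrays (adjusted p = 0.0575 and 0.125) and 30 arrays (0.114 and 0.0854), and Per2, Mal2, Nos1 and Clic4 in that to 15 arrays (0.156, 0.119, 0.0771 and 0.0639). The cause of these shifts was not tested. Arrays give no counts, and genes under the median of their array have little signal over background.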
